A study of Mus musculus with 8 samples.

Results

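Thalamic and habenular marker genes were followed across expression arrays of mouse hippocampus. The members are 7 genes, Slc17a6, Tcf7l2, Prkcd, Rorb, Lef1, Rgs16 and Ntng1, chosen by name. They were measured by 14 of the 20380 probe sets with 1 gene symbol, and make up 7 of the 12393 genes tested. Each of 8 arrays held RNA from the right hippocampus of 1 mouse. The 4 normal mice carried 1 mps copy of Gusb (mps/+) and the 4 mutant mice carried 2 (mps/mps). Gusb encodes beta-glucuronidase, and mps/mps mice are a model of mucopolysaccharidosis VII. All animals shared the B6.C-H2-Kbm1/ByBir strain, came from a colony kept by mating carrier siblings, and lived in mixed cages, so the normals are carriers of the allele and not wild type. Normal 1 was a female of 38.3 weeks, normal 2 a male of 25.6, normal 3 a male of 19.6 and normal 4 a female of 14.6 weeks. Mutant 1 was a female of 38.3 weeks, mutants 2 and 3 were males of 25.6 and mutant 4 was a female of 19.6 weeks. The design asks how expression differs between the genotypes. Values are deposited log2 expression, on which a difference of 1 is a doubling, and levels of different probe sets cannot be set against each other.

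The thalamus and the habenula are parts of the diencephalon and lie beneath the hippocampus, separated from it by a thin cleft. Most thalamic relay neurons are excitatory and load glutamate into vesicles with the transporter VGLUT2, encoded by Slc17a6, while hippocampal pyramidal cells rely mainly on its relative VGLUT1. Tcf7l2 and Lef1 encode TCF/LEF transcription factors, the nuclear effectors of Wnt and beta-catenin signalling, and mark much of the thalamus. Outside it, Tcf7l2 is found in maturing oligodendrocytes, Lef1 in brain endothelium, Rorb in cortical layer IV and Slc17a6 in the hypothalamus.

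The bases just before the annotated starts of Slc17a6, Tcf7l2 and Lef1 are shown because these genes carry the transmitter identity and the TCF/LEF factors of the set, and because their values ranked the arrays much alike. They come from RefSeq (GRCm38.p6, plus strand, 5′ to 3′), at chr7:51621580-51621829, chr19:55741560-55741796 and chr3:131110047-131110296, and end before the first transcribed base. Capitals mark CTTTG or its reverse complement CAAAG, the core letters of TCF/LEF motifs.
Slc17a6: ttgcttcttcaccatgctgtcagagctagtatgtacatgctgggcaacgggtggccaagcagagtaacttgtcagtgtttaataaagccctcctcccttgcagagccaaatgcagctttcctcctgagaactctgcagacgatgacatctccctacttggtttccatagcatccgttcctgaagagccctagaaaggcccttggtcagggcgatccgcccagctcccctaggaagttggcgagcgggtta
Tcf7l2: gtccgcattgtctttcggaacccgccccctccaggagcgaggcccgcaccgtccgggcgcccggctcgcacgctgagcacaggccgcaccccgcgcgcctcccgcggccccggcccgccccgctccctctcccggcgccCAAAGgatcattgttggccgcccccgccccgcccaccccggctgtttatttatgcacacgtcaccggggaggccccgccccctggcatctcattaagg
Lef1: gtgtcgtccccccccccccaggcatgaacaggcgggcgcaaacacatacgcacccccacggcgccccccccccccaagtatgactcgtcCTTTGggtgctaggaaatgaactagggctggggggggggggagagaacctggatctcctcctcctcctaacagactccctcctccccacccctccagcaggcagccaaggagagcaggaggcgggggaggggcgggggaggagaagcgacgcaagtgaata
All 7 members matched the RefSeq promoter table, with 14 windows of 300 bases in all, some of which overlap. The longer motif CTTTGAT, which contains the core, was in 0 of the 14 windows on either strand, against 3.73% of all 32851 windows. The half-site TAGGTCA of ROR receptors was also in 0 of the 14, against 2.61%. The core, added after the windows had been searched, was in 10 of the 14 windows and 5 of the 7 genes, against 53.9% of all windows. These counts describe letters in the windows only.

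The annotated genes lie, in the same build, at chr7:51621830-51671126 (Slc17a6), chr19:55741797-55933659 (Tcf7l2), chr14:30595353-30626414 (Prkcd), chr19:18930609-19111196 (Rorb), chr3:131110297-131224357 (Lef1), chr1:153740353-153745468 (Rgs16) and chr3:109780050-110149972 (Ntng1), and all 7 are protein-coding. Array medians ran from 6.09 to 6.17. As a check of the labels, 1 of the 2 Gusb probe sets was at 5.40 to 6.56 in normals and lower, at 4.36 to 4.71, in every mutant, while the other overlapped between them (5.12 to 6.40 and 5.55 to 6.59).

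The members varied widely between animals of the same genotype, and normals and mutants overlapped for all 14 probe sets. Normal 2, mutant 2 and mutant 4 were the 3 highest arrays for 12 of the 14 probe sets and for 6 of the 7 genes, an order found in 3.03% of all genes. The order was taken from the member values themselves, so these counts are a description and not a test. Normal 2 led normal 1 by only 0.037 for Ntng1, 0.28 for Slc17a6 and 0.30 for Tcf7l2. Mutant 3 was lowest for 9 probe sets, normal 4 for 4 and normal 1 for 1. In bulk tissue, fewer cells of a type and less RNA per cell cannot be told apart. Where a gene has several probe sets, the one with the highest 8-array mean stands for it.

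**Figure D1:**
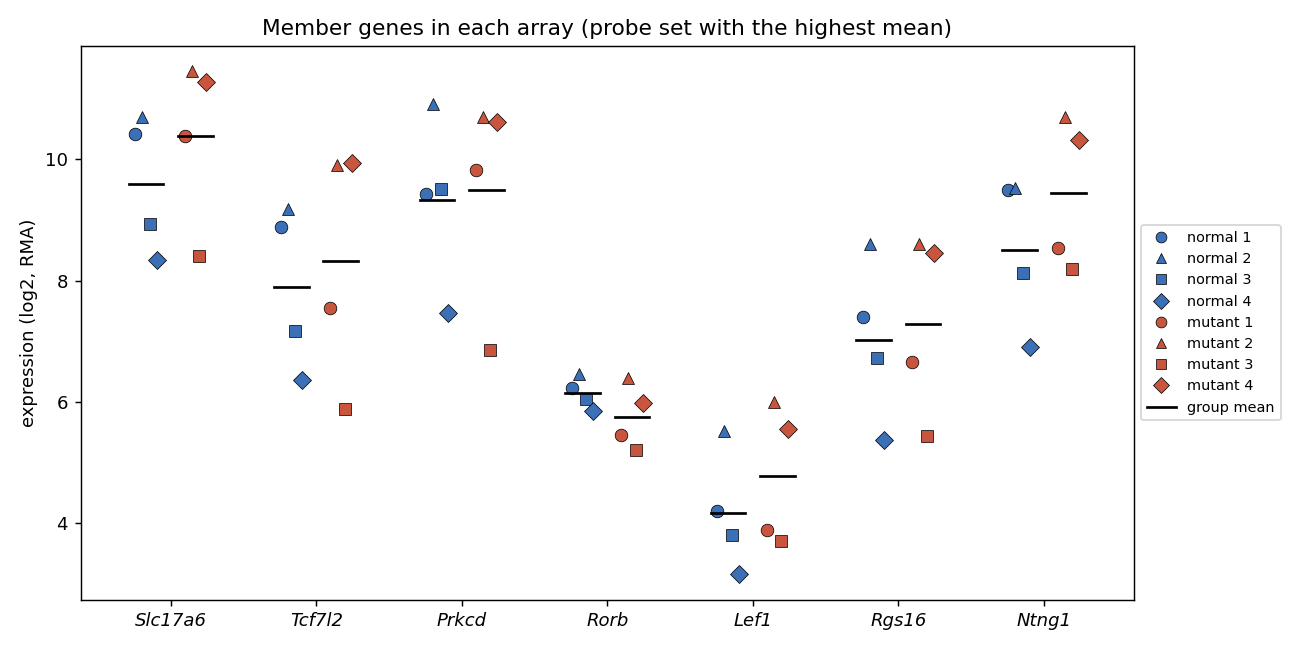
Log2 expression (y axis) of the 7 member genes (x axis) in each array, with normals in blue, mutants in red, the animal number as marker shape and group means as black bars. Normal 2, mutant 2 (triangles) and mutant 4 (red diamond) are highest for every gene but Rorb, for which normals 1 and 3 rank above mutant 4.

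Slc17a6, the vesicular glutamate transporter gene of relay neurons, was at 10.41, 10.69, 8.93 and 8.33 in normals 1 to 4 and at 10.38, 11.45, 8.41 and 11.28 in mutants 1 to 4. Mutants 2 and 4 were highest and normal 4 and mutant 3 lowest, so the groups overlapped. The highest array stood 8.68-fold above the lowest. Means were 9.59 ± 1.14 in normals and 10.38 ± 1.395 in mutants (SD, n = 4 each). They differed by 0.79 ± 0.76 (SE, limma adjusted p = 0.913), with a 95% interval of -0.94 to 2.52, which holds both a doubling and a decrease.

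Tcf7l2, a TCF/LEF factor gene, was at 8.88, 9.18, 7.18 and 6.37 in normals 1 to 4 and at 7.55, 9.90, 5.89 and 9.94 in mutants 1 to 4. The mutants alone covered the whole range over the 8 arrays, 16.6-fold. Means were 7.90 ± 1.35 in normals and 8.32 ± 1.97 in mutants (SD, n = 4 each), a difference of 0.42 ± 1.00 (SE, limma adjusted p = 0.966). Its sign rested on single animals, being -0.093 without normal 4, -0.11 without mutant 2 and -0.12 without mutant 4. Lef1, the other TCF/LEF gene, was the closest to background and was at 4.21, 5.52, 3.82 and 3.16 in normals 1 to 4 and at 3.88, 5.999, 3.71 and 5.55 in mutants 1 to 4. Normal 4 and mutant 3 did not exceed 3.72, the highest value of bacterial control probe sets whose transcripts mice lack (the absent controls). Normal 2, mutant 2 and mutant 4 stood at least 1.31 above the other 5 arrays. Means were 4.17 ± 0.99 in normals and 4.79 ± 1.16 in mutants (SD, n = 4 each), a difference of 0.61 ± 0.64 (SE, limma adjusted p = 0.925).

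Prkcd, the protein kinase C delta gene, was at 9.43, 10.91, 9.51 and 7.46 in normals 1 to 4 and at 9.82, 10.69, 6.86 and 10.62 in mutants 1 to 4. Normal 2 was the highest array, 16.6-fold above mutant 3, the lowest. Means were 9.33 ± 1.42 in normals and 9.50 ± 1.80 in mutants (SD, n = 4 each), a difference of 0.17 ± 0.96 (SE, limma adjusted p = 0.986). Here too the sign rested on single animals, at -0.45 without normal 4, -0.23 without mutant 2 and -0.20 without mutant 4. Rgs16, which encodes a brake on G protein signalling, was at 7.40, 8.61, 6.73 and 5.37 in normals 1 to 4 and at 6.66, 8.61, 5.43 and 8.46 in mutants 1 to 4. The highest normal and the highest mutant had nearly the same value, as had the lowest of each group. Means were 7.03 ± 1.35 in normals and 7.29 ± 1.52 in mutants (SD, n = 4 each), a difference of 0.26 ± 0.86 (SE, limma adjusted p = 0.976). It was -0.29 without normal 4, -0.18 without mutant 2 and -0.13 without mutant 4.

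Ntng1, the gene of the axonal membrane protein netrin-G1, was at 9.49, 9.52, 8.12 and 6.90 in normals 1 to 4 and at 8.53, 10.70, 8.19 and 10.32 in mutants 1 to 4. Mutants 2 and 4 were above every normal, while mutants 1 and 3 lay among the normals. The genotype difference, the largest of the set, was 0.93 ± 0.75 (SE, limma adjusted p = 0.907), between 8.51 ± 1.26 in normals and 9.44 ± 1.26 in mutants (SD, n = 4 each). Rorb, the orphan nuclear receptor gene, was the flattest and was at 6.23, 6.46, 6.04 and 5.85 in normals 1 to 4 and at 5.45, 6.40, 5.21 and 5.98 in mutants 1 to 4. Normal 2 was 2.37-fold above mutant 3, and Rorb alone of the 7 had its lower mean in mutants. Means were 6.14 ± 0.26 in normals and 5.76 ± 0.53 in mutants (SD, n = 4 each), a difference of -0.38 ± 0.26 (SE, limma adjusted p = 0.884) with a 95% interval of -0.98 to 0.21.

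Between genotypes, 0 of the 7 member genes passed adjusted p 0.05 in limma, against 0.105% of all genes (0.0968% higher and 0.00807% lower in mutants). An unadjusted p under 0.05 was reached by 0 of the 7, against 6.53%. Of the 14 probe sets 0 passed, against 0.0884% of all probe sets (0.0796% higher and 0.00884% lower). Two-sided exact permutation p-values of the 7 genes ran from 0.257 to 0.914, where the smallest that 70 arrangements allow is 0.0286. Groups without overlap were found for 0 of the 7, against 3.88% of all genes. The median difference was 0.42 over the members and 0.011 over all genes. These misses do not show that the genotypes are alike, since the 95% intervals of all members but Rorb reached above 2.

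**Figure D2:**
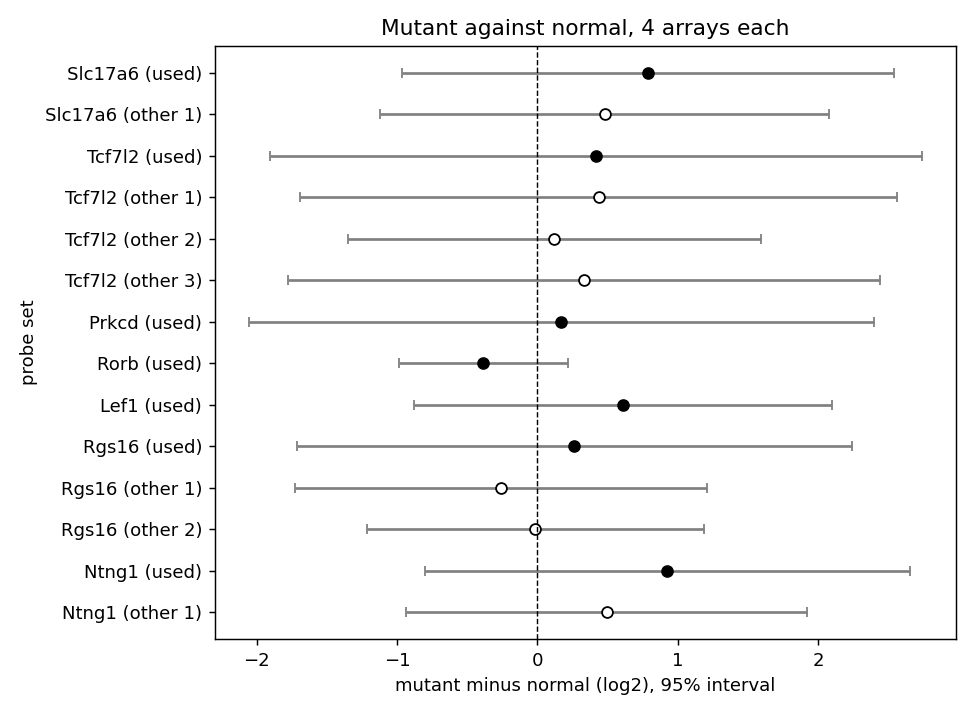
Mutant minus normal difference (x axis, log2) of each of the 14 probe sets (y axis) with its 95% interval from the limma fit over probe sets, filled for the probe set that stands for the gene and open for the others. Every interval includes 0, and 11 estimates lie above 0 and 3 below.

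The spread among animals was large on the scale of the whole array. The SD within genotypes was 1.69 for Tcf7l2 (above 99.8% of genes), 1.62 for Prkcd (above 99.7% of genes) and 1.44 for Rgs16 (above 99.5% of genes). It was 1.27 for Slc17a6 (above 99.2% of genes), 1.26 for Ntng1 (above 99.1% of genes), 1.08 for Lef1 (above 98.5% of genes) and 0.42 for Rorb (above 79.4% of genes), where the median gene had 0.25. Animals alike in genotype, sex and age differed as well. Mutants 2 and 3, both males of 25.6 weeks, differed by 4.02 for Tcf7l2 (16.2-fold), 3.83 for Prkcd (14.2-fold), 3.18 for Rgs16 (9.04-fold) and 3.04 for Slc17a6 (8.24-fold). The gap was 2.51 for Ntng1 (5.68-fold) and 1.19 for Rorb (2.28-fold), each time with mutant 2 higher. For Lef1 mutant 2 stood 2.29 above mutant 3, which was not above the absent controls, so the gap is a lower bound. Of animals matched in sex and age across genotypes, mutant 2 minus normal 2 (males of 25.6 weeks) was 0.76 for Slc17a6, 0.72 for Tcf7l2, -0.22 for Prkcd, -0.061 for Rorb, 0.48 for Lef1, 0.0052 for Rgs16 and 1.17 for Ntng1. Mutant 3 matches normal 2 equally well and was below it for every member gene. The gap was widest for Prkcd (6.86 against 10.91 in normal 2) and narrowest for Rorb (5.21 against 6.46). Mutant 1 minus normal 1 (females of 38.3 weeks) was -0.031 for Slc17a6, -1.33 for Tcf7l2, 0.39 for Prkcd, -0.77 for Rorb, -0.32 for Lef1, -0.74 for Rgs16 and -0.95 for Ntng1. Mutant 2 was higher than normal 2 by 0.48 or more for Slc17a6, Tcf7l2, Lef1 and Ntng1. Mutant 1 was lower than normal 1 for all genes but Prkcd, though the difference was only -0.031 for Slc17a6. The RNA controls of normal 1 stood apart, as given below, and their part in this was not tested. By the other probe set, mutant 1 was above normal 1 for Slc17a6 (8.98 and 8.03) and Ntng1 (6.31 and 5.27). So it was by 1 other probe set each of Rgs16 (6.097 and 4.37) and Tcf7l2 (4.32 and 3.67). The remaining ones of Rgs16 and Tcf7l2 had mutant 1 lower.

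Sex and age gave no call among the members either. Male minus female differences, with genotype as a term, ran from -0.23 (Slc17a6) to 0.56 (Lef1), and 0 of the 7 passed in limma (adjusted p = 1.00 for each), against 0.0323% of all genes (0.0242% higher and 0.00807% lower in males). Slopes on age ran from -0.046 (Lef1) to 0.46 (Slc17a6) per 10 weeks, with 0 of the 7 passing (lowest adjusted p = 0.914), against 0% of all genes. The interaction of genotype and sex rests on 2 animals in each of 4 cells. It was below 0 for all 7 genes and largest for Prkcd (-3.20 ± 1.83 SE, adjusted p = 0.537), and 0 of the 7 passed, against 0% of all genes. In these 3 fits 0 of the 7 had an unadjusted p under 0.05, against 1.95% of all genes for sex, 5.74% for age and 11.5% for the interaction.

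Each gene was also taken as its deviation from its own mean over the 8 arrays. Averaged over the 7 genes, mutant 2 stood at 1.38, mutant 4 at 1.15 and normal 2 at 0.97, with all 7 genes above their own mean in these arrays. Normal 1 was at 0.28, mutant 1 at -0.26 and normal 3 at -0.54. Mutant 3, at -1.48, and normal 4, at -1.52, had all 7 genes below their own mean. In mutant 3 the deviations ran from -2.55 for Prkcd to -0.74 for Rorb. In normal 4 they ran from -2.07 for Ntng1 to -0.099 for Rorb, so that Rorb moved least in both.

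**Figure D3:**
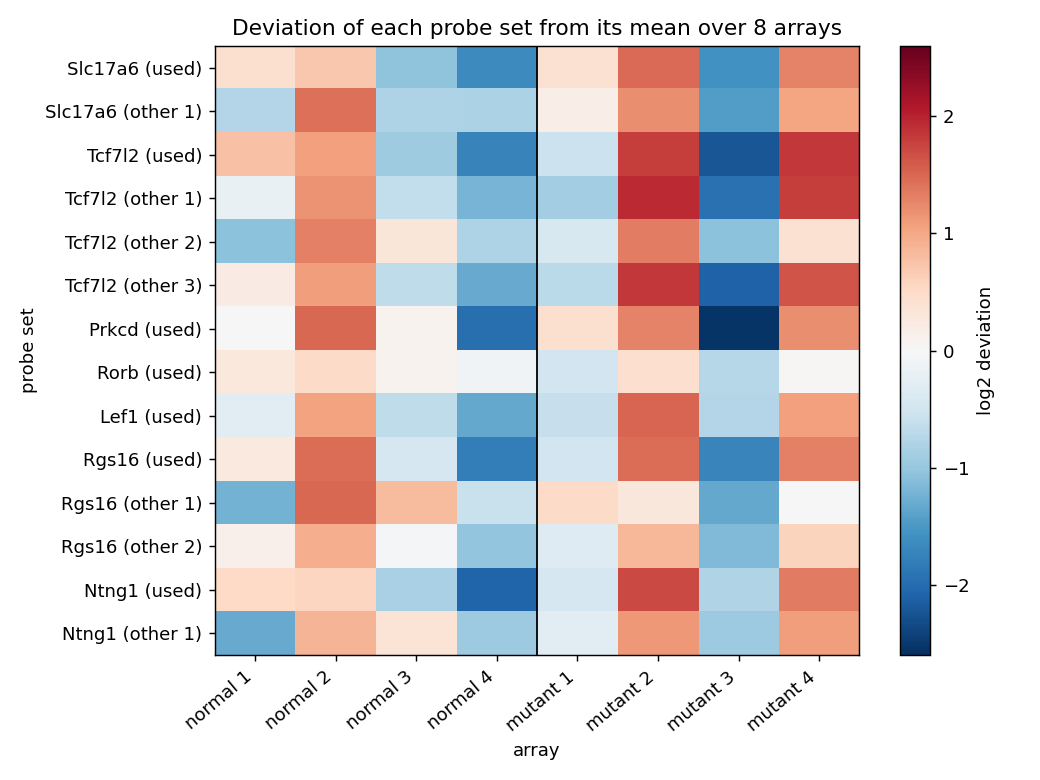
Deviation (colour, log2) of each of the 14 probe sets (y axis) from its own mean over 8 arrays, by array (x axis), with a black line between normals and mutants. Normal 2 and mutant 2 are red in every probe set and mutant 3 is blue in every one, while mutant 4 is red except near 0 for Rorb and the first other Rgs16 probe set.

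Many other thalamic genes, from a list without the members, ran in much the same order. Of 17 measured, 10 had normal 2, mutant 2 and mutant 4 as their 3 highest arrays, against 3.03% of all genes. The list mean was 8.36 to 8.73 in those arrays and 6.36 to 7.44 in the other 5. Gbx2, a homeobox gene of thalamic development, was at 6.61, 7.37, 3.63 and 4.03 in normals 1 to 4 and at 4.52, 9.09, 3.15 and 8.79 in mutants 1 to 4, without exceeding the absent controls in normal 3 and mutant 3. Lhx9, a LIM homeobox gene, was at 7.94, 7.40, 5.11 and 4.20 in normals and at 5.73, 8.96, 5.75 and 8.70 in mutants. Shox2, another homeobox gene, was at 3.56, 7.67, 5.14 and 3.12 in normals and at 4.76, 7.66, 3.34 and 7.27 in mutants, with normals 1 and 4 and mutant 3 within the absent controls. Mutants 2 and 4 were thus high for all 3 genes, while normal 1 was high for Lhx9 and at background for Shox2. Not all of the list ran this way. Lhx2, a further LIM homeobox gene, had mutant 3 highest (8.73) and mutant 1 and normal 2 lowest (6.14 and 6.49). Foxp2 had normals 4 and 3 highest (6.32 and 6.14), and Vamp1 normal 2 and mutant 1 (10.07 and 9.91). Sox14 ranged only from 3.88 to 4.38. Between genotypes 0 of the 17 passed in limma in either direction and 1 had an unadjusted p under 0.05, the forkhead gene Foxp2 (-1.13 ± 0.43 SE, adjusted p = 0.693), which the striatum also expresses. The median difference was 0.38, with 13 means higher and 4 lower in mutants. Cbln1, a synaptic organiser gene (1.499 ± 0.80 SE, adjusted p = 0.84), and Calb2, the calretinin gene (1.11 ± 0.80 SE, adjusted p = 0.892), had the next smallest p-values.

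Of 9 habenular genes measured, 1 had the array order of the members (Chrnb4, a nicotinic receptor subunit gene), and the list mean was highest in mutant 4 (6.21), normal 1 (6.16) and mutant 2 (6.14). Tac2, the neurokinin B gene and a marker of the medial habenula, was at 9.62, 8.51, 5.79 and 6.59 in normals 1 to 4 and at 8.08, 9.86, 5.89 and 9.98 in mutants 1 to 4. Chrna3, another nicotinic subunit gene, was at 7.37, 5.82, 5.05 and 5.06 in normals and at 5.42, 7.16, 4.59 and 7.21 in mutants. Htr5b, a serotonin receptor gene, was at 6.79, 4.76, 3.53 and 4.01 in normals and at 3.86, 6.58, 5.18 and 6.60 in mutants. These 3 genes had the widest ranges of the list, with normal 1, mutant 2 and mutant 4 highest. By contrast, 6 of the 7 members had normal 2 in place of normal 1. Normal 1 is also the array whose RNA controls stood apart, with a 3 prime minus 5 prime difference of 3.58 against at most 0.75 elsewhere, and its part in this was not tested. Chrnb4 itself ranged only from 3.72 to 4.82, the related Chrnb3 from 3.73 to 4.42 and the calbindin gene Calb1 from 10.35 to 11.14. Chrna5, a further nicotinic subunit gene, had mutant 3 and normal 4 highest (4.78 and 4.33) and mutant 2 lowest (2.77). It did not exceed the absent controls outside mutant 3 and normal 4. Between genotypes 0 of the 9 passed in limma and 1 had an unadjusted p under 0.05, the choline transporter gene Slc5a7 (-0.54 ± 0.22 SE, adjusted p = 0.723), whose 2.56 to 3.62 lay within the absent controls in every array. The median difference was 0.13.

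In the Wnt and beta-catenin pathway, where Tcf7l2 and Lef1 act, 0 of 21 measured genes passed between genotypes in limma in either direction. An unadjusted p under 0.05 was reached by 2, the dishevelled gene Dvl2 (0.38 ± 0.16 SE, adjusted p = 0.728) and the ligand gene Wnt7a (-0.37 ± 0.15 SE, adjusted p = 0.742), and the median difference was 0.13. The median range over arrays was 0.77, against 3.24 for the members and 0.75 for all genes. Axin2 and Nkd1, negative feedback genes that are standard readouts of the pathway, were among the 3 most variable of the list with Fzd7, a Wnt receptor gene. Axin2 was at 8.08, 7.52, 6.69 and 7.01 in normals 1 to 4 and at 6.94, 8.71, 7.33 and 8.42 in mutants 1 to 4. Nkd1 was at 4.74, 4.77, 4.35 and 3.89 in normals and at 4.51, 5.62, 4.15 and 5.84 in mutants. Mutants 2 and 4 were highest for both, though Axin2 was higher in normal 1 (8.08) than in normal 2 (7.52). Fzd7, with the largest range of the 3, was at 7.36, 6.19, 5.30 and 6.11 in normals and at 7.07, 6.54, 6.41 and 6.53 in mutants, and had normal 1 and mutant 1 highest instead. Ccnd1, the cyclin D1 gene, ran the other way, with mutants 2 and 4 lowest (7.49 and 7.61) and mutant 3 highest (8.25). Of the 21 genes, 2 had normal 2, mutant 2 and mutant 4 as their 3 highest arrays, against 3.03% of all genes. Ctnnb1, the beta-catenin gene, stayed within 11.90 to 12.51, and Tcf7l1, a further TCF gene, within 5.95 to 6.26.

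The genes most like the members were ranked by root mean square difference (log2) from the mean deviation of the 7 members over the 8 arrays, among 10747 other genes whose median was 1.07. The 10 closest were Rora (0.21), Defb1 (0.23), Gjc1 (0.28), Mrvi1 (0.28), Zic1 (0.30), Medag (0.32), Cit (0.32), Tmem163 (0.32), Vash2 (0.34) and Adamts15 (0.34). Rora encodes the nuclear receptor related to Rorb, and Zic1 a zinc-finger factor, and both are on the list of other thalamic genes. Rora was at 11.35, 11.37, 10.53 and 9.20 in normals 1 to 4 and at 10.43, 12.13, 9.45 and 11.94 in mutants 1 to 4. Defb1, a beta-defensin gene, was at 5.57, 6.34, 4.50 and 4.21 in normals and at 4.85, 6.82, 4.03 and 6.22 in mutants. Gjc1, a connexin gene, was at 7.78, 7.99, 7.07 and 5.82 in normals and at 7.25, 8.47, 6.14 and 7.97 in mutants. All 3 had mutant 2 highest and either normal 4 or mutant 3 lowest. Of the members, Rgs16 (0.24) lay closest to their mean and Rorb (0.82) farthest, with 521 other genes closer than Rorb.

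Markers of neighbouring tissue differed between arrays too, and their part in the member values was not tested. Neocortical genes (7) had list means of 7.22 in normal 3, 7.11 in normal 4 and 7.71 in mutant 3, the arrays with the lowest member means, and of 5.08 to 5.89 in the other 5. Neurod6, a gene of excitatory telencephalic neurons with the widest range of the list, was at 8.68 in mutant 3 and at 2.42 to 2.75, within the absent controls, in normal 1 and mutants 2 and 4. Lamp5, Tbr1, Fezf2 and Mef2c also had normals 3 and 4 and mutant 3 highest. Cux2 did not, with mutants 4 and 2 highest (5.86 and 5.60) and normal 4 lowest (4.54). Nor did Rasgrf2, which ranged only from 3.90 to 4.87. The labelled hippocampus showed in unequal measure. CA1 genes (3) had means of 7.82 in normal 2, 7.496 in mutant 2 and 7.43 in mutant 4, against 9.43 in normal 4 and 9.36 in mutant 3. They were at 9.23 in normal 1, 8.51 in normal 3 and 7.76 in mutant 1. Normal 1 was thus high for CA1 genes with a member mean above average, and mutant 1 low with one below average. Dentate granule genes (7) had means of 6.98 in mutant 3 and 5.17 to 6.02 in the other 7. Tdo2, a dentate marker gene, was at 6.28 in mutant 3 and at 2.34 to 3.501, within the absent controls, in normals 1 and 2 and mutants 2 and 4. Prox1, the defining dentate factor gene, was highest in mutants 2 and 4 (5.08 and 4.83) and within the absent controls in normals 2, 3 and 4 and mutant 1. CA3 genes (5) ranged from 5.79 to 6.67, again with mutant 3 highest and mutant 4 lowest.

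Striatal, hypothalamic and midbrain genes were high in other sets of arrays. Striatal genes (6) had means of at least 9.02 in normals 1, 3 and 4, where no other array passed 6.93. Hypothalamic peptide genes (8) had means of 9.10 in normal 2, 8.71 in mutant 1, 7.69 in mutant 4 and 6.21 in mutant 2, against 5.03 to 5.73 elsewhere. Hcrt, the orexin gene, was at 9.58 to 10.35 in normal 2 and mutants 1 and 4 and at 4.51 to 4.80 in the other 5, including mutant 2, where the members were highest. Mutant 1 had high peptide genes and a member mean below average. Midbrain and brainstem genes (5) were highest in mutant 1 (7.05) and normal 2 (6.01), and at 3.97 to 5.29 in the others. Genes listed for the zona incerta and pretectum (6) had means of 6.79 to 7.54, with normal 2 highest and mutant 2 lowest. The list holds Gad1 and Gad2, genes of inhibitory neurons in general, which were highest in normal 4 (11.51 and 9.10). Its mean therefore does not single out these regions.

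**Figure D4:**
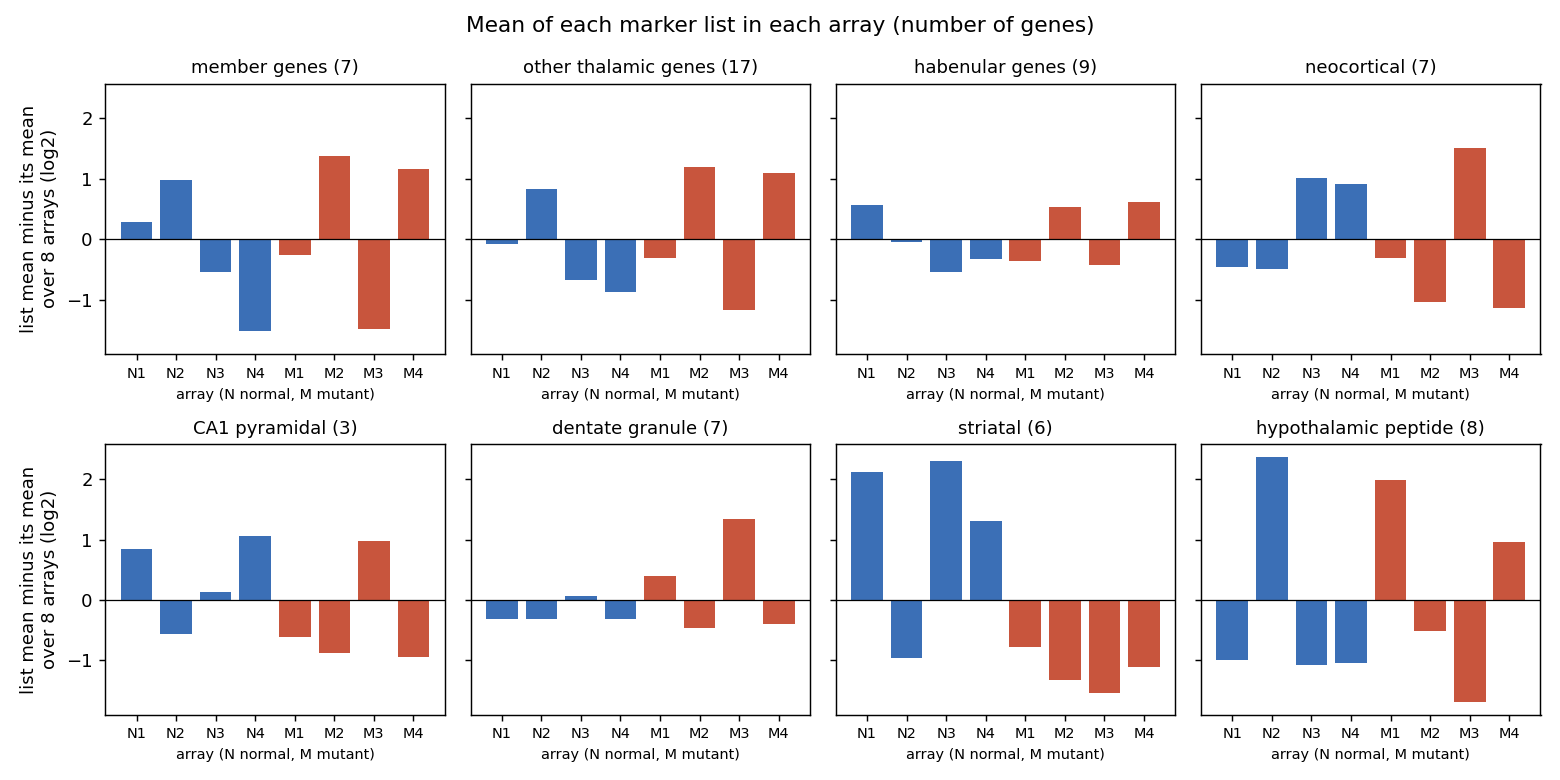
Mean of each marker list in each array minus its mean over the 8 arrays (y axis, log2), by array (x axis, N normal in blue and M mutant in red), with the number of genes in each panel's title. The member genes and the other thalamic genes both have N2, M2 and M4 highest, while the neocortical list is highest in N3, N4 and M3.

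Glial, vascular and choroid plexus markers were measured in the same arrays, and their part in the member values was not tested. For oligodendrocyte and myelin genes (7) the means of the normals lay within 10.14 to 10.63 and those of the mutants within 9.03 to 9.81 (9.62 and 9.80 in mutants 2 and 4). The genotypes did not overlap for 5 of the 7, against 3.88% of all genes, but 0 passed in limma (lowest adjusted p = 0.321). Endothelial genes (7) had means of 5.96 to 6.77 among normals, and of 6.54 to 6.95 among mutants. Choroid plexus genes (8) had their highest means in mutants 1 and 3 (8.62 and 7.60). Otx2 of this list departed, at 7.05 and 6.89 in mutants 2 and 4 and at 6.88 and 6.37 in mutants 1 and 3. Activated microglia genes (8) had means of 7.63 to 8.08 in mutants and 5.17 to 5.66 in normals. Of the 8, 6 were higher in mutants at adjusted p 0.05 in limma, against 0.0968% of all genes. For these genes mutant 3 was the lowest of the 4 mutants (7.63) but above every normal. Its member mean was also the lowest of the 4 mutants.

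Probe sets of the same gene disagreed most in normal 1, whose RNA controls also stood apart. The mean 3 prime minus 5 prime difference of its actin and Gapdh control probe sets was 3.58, against 0.22 to 0.75 in the other 7 arrays, and its part in these differences was not tested. The Slc17a6 probe set in use exceeded the other by 2.38 in normal 1 and by 0.35 to 1.46 elsewhere. For Ntng1 the difference was 4.21 in normal 1 and 1.18 to 2.99 elsewhere. Across the 4 genes with several probe sets, normal 1 had the largest difference in 6 of 7 pairs. Its rank therefore depended on the probe set. Slc17a6 was at 10.41 in normal 1 by the probe set in use and at 8.03 by the other, where normal 2 had 10.69 and 10.22. Ntng1 was at 9.49 by the probe set in use, near normal 2, and at 5.27 by the other, the lowest of the 8 arrays. For Tcf7l2 the 3 differences were 2.27, 5.22 and 1.53 in normal 1, against 0.78 to 1.65, 2.13 to 4.80 and 0.53 to 1.15 elsewhere. The probe set behind the second of these was not above the absent controls in normal 1 and mutant 3, so the differences there are lower bounds. Without normal 1, 0 of the 7 genes passed between genotypes in limma.

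**Figure D5:**
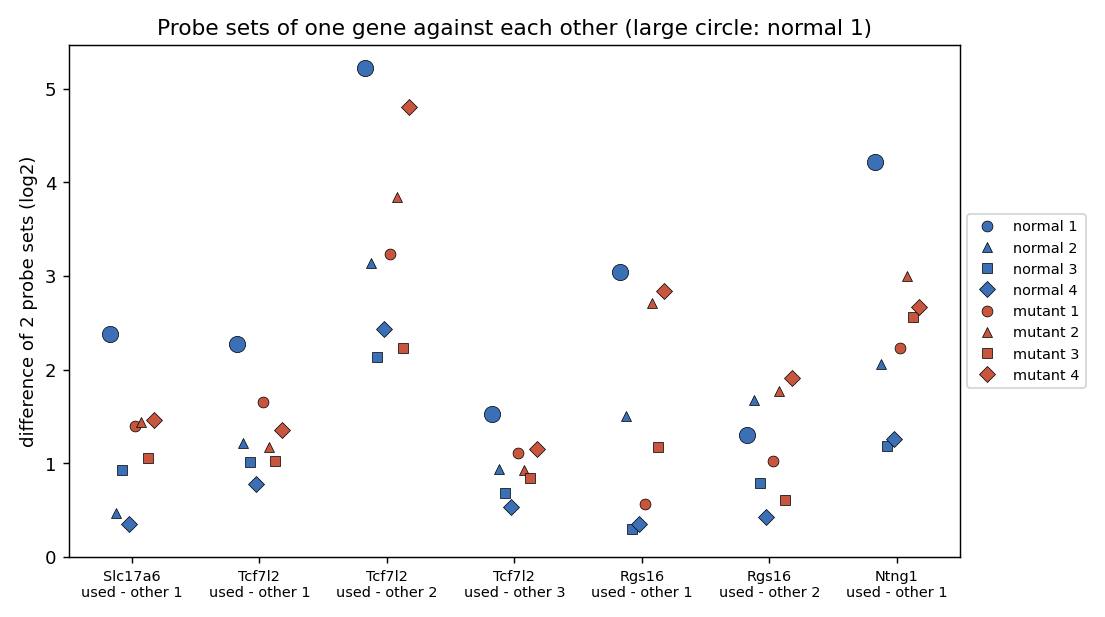
Difference (y axis, log2) between the probe set in use and another of the same gene for 7 pairs (x axis), in each array, with normals in blue, mutants in red and normal 1 as the large circle. Normal 1 lies above the other 7 arrays in every pair but the second of Rgs16.

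The remaining probe sets gave no genotype call either. For Rgs16 both had a mean lower in mutants, opposite to the probe set in use (-0.26 ± 0.64 SE, adjusted p = 0.974, and -0.014 ± 0.53 SE, adjusted p = 0.998, in limma). Slc17a6 (0.48 ± 0.70 SE, adjusted p = 0.95) and Ntng1 (0.49 ± 0.62 SE, adjusted p = 0.944) kept a higher mean in mutants. So did the other 3 of Tcf7l2, between 0.12 and 0.44. The first other Rgs16 probe set left the common array order and was at 4.37, 7.10, 6.43 and 5.02 in normals 1 to 4 and at 6.097, 5.90, 4.26 and 5.62 in mutants 1 to 4. Normals 2 and 3 and mutant 1 were highest there.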

How the data were processed

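Each animal gave 1 Affymetrix array. The values are deposited log2 expression per probe set; the authors' tools, per the submitters' processing notes, were GCOS 1.4 and RMA, which corrects background and normalizes between arrays. Of 22690 probe sets, 64 were controls, 20380 had 1 symbol in the platform annotation, 691 several and 1555 none; IDs of 20351 matched RefSeq (GRCm38.p6). No dim gene was removed. Genotypes were compared by limma 3.58.1 (R 4.3.3), adjusting by Benjamini-Hochberg across the 12393 genes or 22626 probe sets; sex and age were fitted with genotype as a term. Absent controls are 15 bacterial probe sets. Precision is limited by the number of arrays. The colony was kept by mating carrier siblings, and labels do not say how these animals are related. The p-values test mean differences against the spread between these mice and treat the mice as independent. The members and gene lists were chosen with earlier results of these data known. Named genes were the members and the 10 most like the members. From each list they were up to 3 with the smallest p and up to 3 with the largest range. Some others were named after their values were seen, among them Ctnnb1, Tcf7l1, Ccnd1, Lhx2, Sox14, Vamp1, Chrna5, Chrnb3 and Calb1. The tests were tried on simulated data. Alternatives were other probe set choices, a dim filter, other scalings and eBayes options, array weights, covariates, an age block and leaving out each animal.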

Additional observations from a re-analysis of the deposited data

Results flagged for a closer look

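In 28 groups of 4 arrays (14 probe sets in 2 genotypes), 1 value stood far from the rest of its group, where chance gives about 1 in 20. The other Slc17a6 probe set was at 10.22 in normal 2 and at 7.98 to 8.03 in the remaining normals. On the probe set in use, normal 2 was at 10.69 and normal 1 at 10.41.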

How the results depend on the processing

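Between genotypes 0 of the 7 genes passed in limma under any of the 19 alternatives, with a lowest adjusted p of 0.287 (Ntng1). The 14 probe sets, sex, age and the interaction also gave 0 calls under each alternative run; with 1 animal left out, the lone animal of an interaction cell is assumed to vary like the others. With 1 animal left out, the difference was 0.37 to 1.45 for Slc17a6, 0.21 to 1.06 for Lef1, 0.39 to 1.34 for Ntng1 and -0.60 to -0.20 for Rorb, none of which changed sign under any alternative run. It changed sign for Tcf7l2 (-0.12 to 1.23), Prkcd (-0.45 to 1.05) and Rgs16 (-0.29 to 0.88), and for Rgs16 also with the mean of all probe sets (-0.0038); beyond the animal or probe sets exchanged, the cause was not tested. Array weights gave 1.41 for Tcf7l2, 1.44 for Slc17a6, 0.54 for Prkcd, 0.83 for Rgs16, 1.02 for Lef1, 1.47 for Ntng1 and -0.22 for Rorb, more than 1.5 times the reported difference for all but Rorb, again without a call. Leaving out the dimmest 40% removed Lef1, and leaving out probe sets named _x, _s or _a left 4 of the 7 genes. Over all genes 5 to 32 rose and 0 to 22 fell, against 12 and 1 as reported. No paired analysis was possible because the replicate numbers only name the animals and the labels tie no normal to a mutant. With 4 animals a group, SEs of 0.64 to 1.00 for 6 of the genes and 0.26 for Rorb limit what could be detected.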

Other observations

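Genes listed as family relatives of the members mostly ran in other orders. Of 17 measured, which include Lrrc4 from another gene family, 1 (Rora) had normal 2, mutant 2 and mutant 4 highest, against 3.03% of all genes. Between genotypes 0 passed in limma, against 0.105% of all genes, and 3 had an unadjusted p under 0.05, against 6.53%. Rgs2, a regulator of G protein signalling like Rgs16, was at 10.41, 9.42, 10.23 and 10.25 in normals 1 to 4 and at 9.42, 9.13, 8.76 and 8.93 in mutants 1 to 4 (-1.02 ± 0.24 SE, adjusted p = 0.321). Rgs9, its striatal relative, was at 10.25, 7.73, 10.96 and 9.90 in normals and at 7.77, 7.19, 7.13 and 7.27 in mutants (-2.37 ± 0.60 SE, adjusted p = 0.388). The 3 normals high for Rgs9 were those with high striatal genes. Prkcz, an atypical protein kinase C gene, was at 9.11 to 9.71 in normals and 8.82 to 9.18 in mutants (-0.38 ± 0.15 SE, adjusted p = 0.719). On a separate list of vesicular transmitter transporters, Slc32a1, the vesicular transporter gene of inhibitory neurons, was at 9.84, 9.16, 9.17 and 9.47 in normals and at 9.22, 7.89, 7.94 and 8.54 in mutants (-1.01 ± 0.31 SE, adjusted p = 0.529).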
